A study of Mus musculus with 4 samples.

Results

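The genes described here write or erase methylation of lysine 27 on histone H3 (H3K27). They were taken from the count table by gene name: Ezh1, Ezh2, Eed, Suz12, Jarid2, Aebp2, Mtf2, Phf19, Kdm6a and Kdm6b, 10 of the 29224 genes listed. RNA was sequenced from astrocytes of the P5 mouse cerebral cortex, pulled down on magnetic beads by GLAST, a glutamate transporter that astrocytes display on their surface. There were 2 libraries from Ezh2 f/f mice, whose Ezh2 alleles are floxed, and 2 from Ezh2 cKO mice, which carry the same floxed alleles together with an Aldh1l1-driven Cre recombinase. Aldh1l1 is an astrocyte gene, so cells in the pull-down that do not use that promoter would keep their Ezh2. The labels do not say how many animals each library came from. The libraries of a group differ in sex-linked transcripts, as given below, so they did not come from one and the same animal. P-values of single genes rest on the spread between these libraries, which edgeR moderates with that of all genes tested.

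Polycomb repressive complex 2 (PRC2) methylates H3K27 and so keeps developmental genes silent. Its core holds a catalytic subunit, EZH2 or its paralogue EZH1, together with EED, which binds methylated H3K27 and stimulates the enzyme, and the scaffold SUZ12. Accessory subunits come in alternative sets: JARID2 and AEBP2 in one form of the complex, and MTF2, PHF19 or PHF1 in the other. KDM6A (UTX) and KDM6B (JMJD3) remove the mark. EZH2 is typical of dividing progenitors, whereas EZH1 persists in cells that no longer divide.

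The promoters of 4 PRC2 genes are shown because Ezh2 and its paralogue Ezh1 parted in these data, and because Suz12 and Phf19 share with Ezh2 a match to an E2F motif. E2F factors drive genes of the cell cycle. Sequences are RefSeq's, on GRCm38.p6, written along the gene's strand. Each line gives the 250 bases before the RefSeq start site, and the Ezh2 line goes on for 20 bases after it. Capitals mark TTTCCCGC or TTTGGCGC on either strand. Ezh2 lies at chr6:47595011-47595280 (minus strand), Ezh1 at chr11:101226464-101226713 (minus strand), Suz12 at chr11:79992856-79993105 (plus strand) and Phf19 at chr2:34913977-34914226 (minus strand).
Ezh2: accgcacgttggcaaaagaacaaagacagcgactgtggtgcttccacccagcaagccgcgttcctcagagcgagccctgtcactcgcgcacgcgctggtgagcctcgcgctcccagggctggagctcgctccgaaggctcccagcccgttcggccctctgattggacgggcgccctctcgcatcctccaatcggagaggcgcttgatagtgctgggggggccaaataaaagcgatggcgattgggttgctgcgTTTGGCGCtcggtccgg
Ezh1: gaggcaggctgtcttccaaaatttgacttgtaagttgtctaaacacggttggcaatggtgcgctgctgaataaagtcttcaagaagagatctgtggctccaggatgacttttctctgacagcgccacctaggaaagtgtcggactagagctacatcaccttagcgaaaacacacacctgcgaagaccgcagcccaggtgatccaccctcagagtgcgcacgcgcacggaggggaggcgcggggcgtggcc
Suz12: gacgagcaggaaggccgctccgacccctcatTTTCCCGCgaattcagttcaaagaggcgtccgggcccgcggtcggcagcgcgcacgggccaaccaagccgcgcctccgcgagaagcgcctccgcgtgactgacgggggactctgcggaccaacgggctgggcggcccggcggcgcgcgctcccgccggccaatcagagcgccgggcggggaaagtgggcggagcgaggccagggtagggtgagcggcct
Phf19: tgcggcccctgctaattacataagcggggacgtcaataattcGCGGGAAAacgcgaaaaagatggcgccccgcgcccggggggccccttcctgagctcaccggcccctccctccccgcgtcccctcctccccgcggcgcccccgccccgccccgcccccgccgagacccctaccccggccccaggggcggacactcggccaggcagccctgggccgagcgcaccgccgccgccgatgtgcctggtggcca

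By RefSeq's start sites, the Ezh2 match began at base 4 of the transcript and the Suz12 match 219 bases before the site. The Phf19 match, on the opposite strand, began 208 bases before its site. The start sites differ between annotations. GENCODE's Ezh2 gene begins farther upstream, at base 47595341, so the printed Ezh2 stretch lies inside that gene. GENCODE's Phf19 gene begins at base 34914026, within the printed Phf19 stretch. Promoter windows of 300 bases were available for 9 of the 10 genes, all but Kdm6b. There were 13 windows in all, since Jarid2, Aebp2 and Mtf2 have more than 1. An E2F match was present for 3 of these 9 genes, in 3 of their 13 windows, and in 1.56% of all 32851 windows. Eed, Jarid2 and Aebp2, also called lower in Ezh2 cKO, had no E2F match. Nor had Ezh1, Mtf2 and Kdm6a, which were not called. The relation of these matches to the levels was not tested. The CHR motif TTTGAA, another cell-cycle promoter element, was present for 4 of the 9 genes (Eed, Suz12, Aebp2 and Mtf2), in 4 of the 13 windows, and in 17.9% of all windows. CCAAT was present for 6 of the 9 genes, in 7 of the 13 windows, and in 37.4% of all windows. All motifs were searched on both strands, and no E2F match overlapped a CHR match in these windows. The windows of the 9 genes held between 2 and 41 CpG dinucleotides, and 10 of the 13 held more than the median of 7 over all windows. The 3 windows with an E2F match held 64.3% (Ezh2), 71.0% (Suz12) and 74.3% (Phf19) GC, against a median of 52.7% over all windows. The shares over all windows were not matched for base composition. These are matches of letters only, and the motifs were chosen with earlier results of these data known.

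Ezh2 (chromosome 6, 47530139 to 47595341, minus strand, GRCm38), the gene targeted in the cross, was lower in Ezh2 cKO astrocytes. It had 434 and 327 counts in Ezh2 f/f, against 211 and 164 in Ezh2 cKO, so the groups did not overlap. The level fell from 3.36 ± 0.495 FPKM (SD, n = 2) to 1.65 ± 0.248 FPKM (SD, n = 2), where FPKM are counts scaled to gene length and library total. The log2 fold change, Ezh2 cKO over Ezh2 f/f, was -1.11 (standard error 0.16, edgeR adjusted p = 3.26e-05), with a 95% confidence interval of -1.46 to -0.76. Ezh2 transcripts thus remained at 46.4% of the Ezh2 f/f level. Counts were made per gene, and the sources used here do not say which exons are floxed, so reads from exons outside the deletion count toward this level. In bulk RNA, fewer cells with a transcript and less transcript per cell cannot be told apart.

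Of the 10 genes, 7 were lower in Ezh2 cKO by edgeR, with an adjusted p under 0.05 (Kdm6b, Ezh2, Eed, Phf19, Jarid2, Suz12 and Aebp2), and Ezh1, Mtf2 and Kdm6a were not called. Of all 16793 genes tested, 33.6% were called lower. None of the 10 was called higher, against 34.7% of all genes tested, and none was higher at an unadjusted p under 0.05 or with DESeq2. Their median log2 fold change was -0.50, beside 0.02 over all genes tested. In CPM, the counts after scaling by library size, both Ezh2 cKO libraries lay below both Ezh2 f/f libraries for 8 of the 10 genes, an arrangement found in 41.5% of all genes tested. Summed over the 10 genes, the level was 389 and 369 CPM in Ezh2 f/f, against 223 and 237 CPM in Ezh2 cKO. Kdm6b alone held 156 and 139 CPM of these sums in Ezh2 f/f, against 58.5 and 57.4 CPM in Ezh2 cKO. Ezh2, the gene targeted in the cross, is included in the counts of genes, the median and the sums. All 10 passed the filter on low counts.

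**Figure D1:**
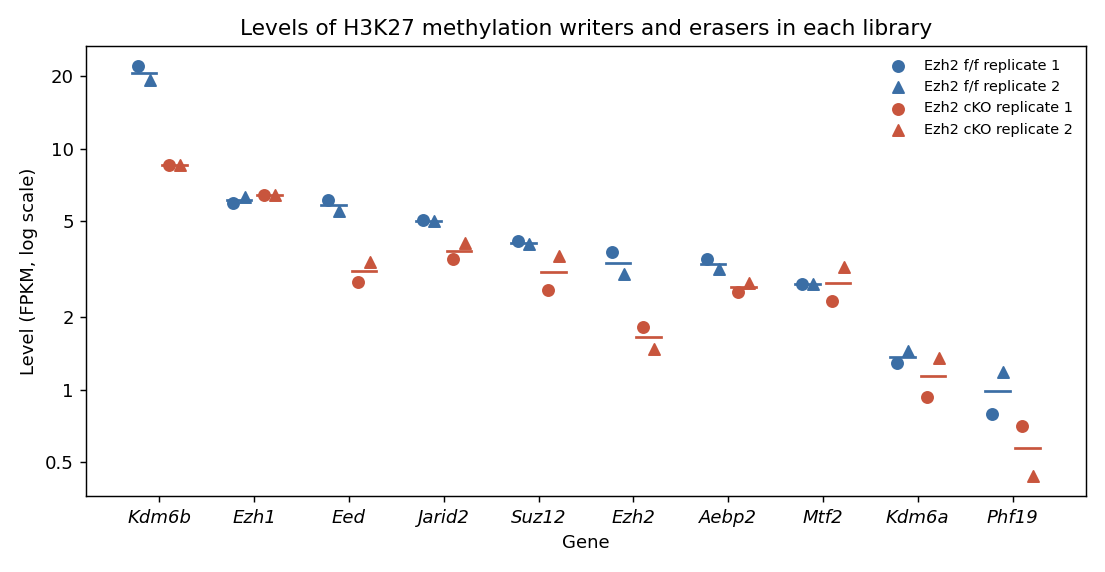
Level of each gene in each library, in FPKM on a log axis, with genes ordered by their mean in Ezh2 f/f. Points are libraries and short bars are group means (n = 2). Kdm6b stands highest in both groups, and Mtf2 and Kdm6a are the genes whose FPKM ranges overlap between groups.

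Ezh1, the other catalytic subunit, was not called. Ezh1 (chromosome 11, 101191115 to 101226463, minus strand) had 774 and 766 counts in Ezh2 f/f, against 827 and 795 in Ezh2 cKO. Its groups overlapped after scaling, at 45.3 and 48.7 CPM against 46.9 and 45.9 CPM, whereas in FPKM, scaled to library totals, both Ezh2 cKO libraries (6.41 each) lay above the Ezh2 f/f libraries (5.94 and 6.33). Its log2 fold change was -0.02 (standard error 0.10, edgeR adjusted p = 0.868), and the sign turned to 0.06 when counts were scaled to library totals alone. The 95% confidence interval, -0.23 to 0.19, covers changes of up to 1.14-fold upward and down to 0.86-fold. It does not reach the interval of Ezh2.

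Within each library, Ezh2 accounted for 38.5% and 32.2% of the summed FPKM of Ezh1 and Ezh2 in Ezh2 f/f, and for 22.1% and 18.7% in Ezh2 cKO. Ezh1 was therefore the more abundant paralogue per length in all 4 libraries. The summed FPKM of both genes was 9.65 and 9.34 in Ezh2 f/f, against 8.24 and 7.88 in Ezh2 cKO. The log2 ratio of Ezh2 over Ezh1 moved from -0.68 and -1.07 to -1.81 and -2.12, a difference of -1.09 between group means. The groups did not overlap, and an exact 2-sided permutation test gave p = 0.333, the smallest value that 2 against 2 libraries allow.

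The core subunit genes Eed and Suz12 were also lower. Eed (chromosome 7, 89954654 to 89980983, minus strand) had 411 and 344 counts in Ezh2 f/f, against 186 and 216 in Ezh2 cKO. Its level was 5.82 ± 0.43 FPKM (SD, n = 2) in Ezh2 f/f and 3.09 ± 0.41 FPKM (SD, n = 2) in Ezh2 cKO. The log2 fold change of -0.998 (standard error 0.15, edgeR adjusted p = 3.38e-05) was close in size to that of Ezh2, although Eed was not targeted. A long non-coding RNA on the opposite strand, E230029C05Rik, overlaps Eed by 261 bases in the deposited coordinates and had 25, 20, 36 and 32 counts in the same order of libraries. Whether counting used the strand is not given in the sources used here.

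Suz12 (chromosome 11, 79993106 to 80034123, plus strand) had 357 and 325 counts in Ezh2 f/f, against 223 and 295 in Ezh2 cKO. The Ezh2 cKO libraries differed from each other by more than the Ezh2 f/f libraries did, but both lay below them in CPM. The log2 fold change was -0.49 (standard error 0.16, edgeR adjusted p = 0.0129). Without Ezh2 cKO replicate 1 it was -0.29 (edgeR adjusted p = 0.170) and the call was lost, as it was in all 3 limma analyses of FPKM (adjusted p = 0.0739 to 0.178). The log2 ratio of Eed over Suz12 in FPKM was 0.57 and 0.45 in Ezh2 f/f, against 0.11 and -0.08 in Ezh2 cKO, so the 2 genes were at nearly equal levels per length in Ezh2 cKO (exact 2-sided permutation p = 0.333, the smallest possible).

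Both accessory genes of the JARID2 and AEBP2 form were lower. Jarid2, whose product helps recruit PRC2 to chromatin (chromosome 13, 44729474 to 44921643, plus strand), had 861 and 791 counts in Ezh2 f/f, against 586 and 655 in Ezh2 cKO. Its log2 fold change was -0.50 (standard error 0.10, edgeR adjusted p = 0.00059), and the call was lost with limma on log2(FPKM + 1) without a filter (adjusted p = 0.0557). Aebp2, a zinc finger protein that stabilises the complex (chromosome 6, 140622663 to 140678472, plus strand), had 604 and 507 counts against 436 and 455. Its log2 fold change was -0.41 (standard error 0.11, edgeR adjusted p = 0.0056), and its adjusted p was 0.0676 without Ezh2 cKO replicate 1 and 0.0812 to 0.134 in the 3 limma analyses. For both genes the groups did not overlap in CPM.

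The Polycomb-like subunits, which bind DNA and methylated H3K36, gave 3 different values. Phf19 (chromosome 2, 34893757 to 34914026, minus strand) was the least abundant of the 10 genes, with 70 and 97 counts in Ezh2 f/f, against 62 and 37 in Ezh2 cKO. Its log2 fold change was -0.85 (standard error 0.29, edgeR adjusted p = 0.0186), with the widest 95% confidence interval of the 10, -1.48 to -0.23. The value was -0.55 (edgeR adjusted p = 0.104) without Ezh2 f/f replicate 2, and leaving out Ezh2 cKO replicate 2 gave -0.54 (edgeR adjusted p = 0.207), so the call rests on those libraries. DESeq2 gave -0.88 with an adjusted p of 0.0832.

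Mtf2 (chromosome 5, 108065674 to 108109004, plus strand) was not called. Its counts were 274 and 254 in Ezh2 f/f, against 231 and 306 in Ezh2 cKO, with one Ezh2 cKO library below and the other above both Ezh2 f/f libraries in CPM. The log2 fold change was -0.07 (standard error 0.16, edgeR adjusted p = 0.730) with a 95% confidence interval of -0.41 to 0.28, and the sign turned to 0.02 when counts were scaled to library totals alone. Mtf2 overlaps Tmed5 on the opposite strand by 2639 bases in the deposited coordinates, and Tmed5 had 40 and 35 counts in Ezh2 f/f, against 127 and 139 in Ezh2 cKO. The part of these reads in the Mtf2 counts was not tested. Phf1 had 499 and 516 counts against 464 and 435, a log2 fold change of -0.27 (edgeR adjusted p = 0.0532).

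**Figure D2:**
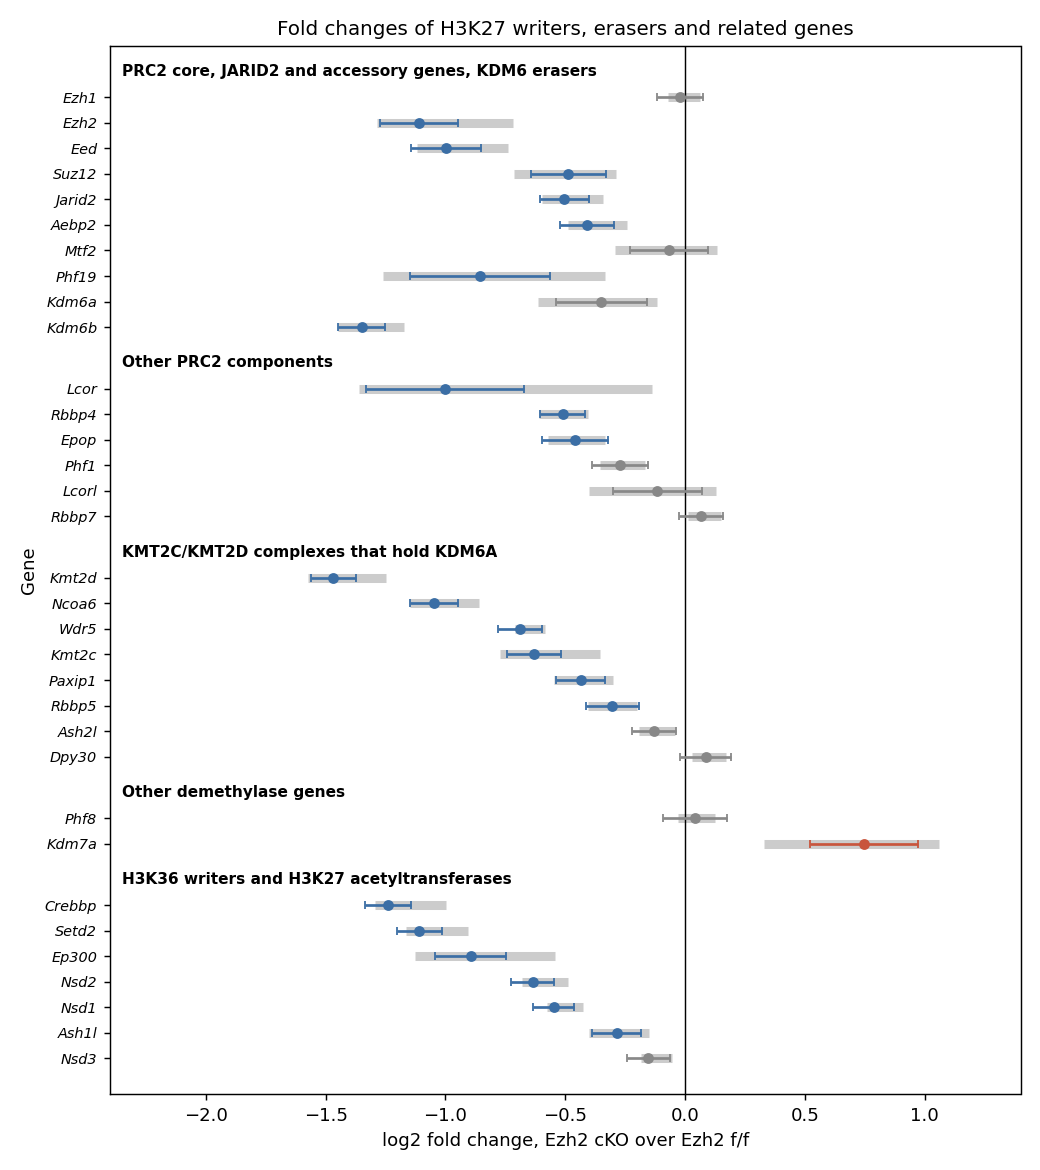
Log2 fold change (Ezh2 cKO over Ezh2 f/f) of the 10 writer and eraser genes and of related genes, with error bars of 1 standard error from edgeR. Blue marks genes called lower, red higher and grey not called, and the pale bar behind each point spans the other analyses, including each library left out. Uty, at 0 counts in 2 libraries, is not drawn. Kdm6b, Ezh2 and Eed lie lowest among the 10 genes, and Kdm7a is the only related gene called higher.

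Kdm6b (chromosome 11, 69398508 to 69413675, minus strand) was the most abundant of the 10 genes and had the lowest fold change among them. It had 2669 and 2182 counts in Ezh2 f/f, against 1032 and 994 in Ezh2 cKO. Its level fell from 20.6 ± 1.85 FPKM (SD, n = 2) to 8.57 ± 0.0050 FPKM (SD, n = 2), with no overlap between groups. The log2 fold change was -1.35 (standard error 0.10, edgeR adjusted p = 3.49e-08), and it ranged from -1.45 to -1.17 over the other analyses, all of which called it. Of all genes tested, 7.98% had a log2 fold change as low or lower. The antisense gene Kdm6bos, which overlaps Kdm6b, had 7, 4, 3 and 8 counts.

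Kdm6a (chromosome X, 18162575 to 18279936, plus strand) was not called. It had 190 and 198 counts in Ezh2 f/f, against 136 and 189 in Ezh2 cKO. In CPM the values were 11.1 and 12.6 against 7.71 and 10.9, so the groups did not overlap, whereas in FPKM the second Ezh2 cKO library, at 1.35, lay above the first Ezh2 f/f library, at 1.29. The log2 fold change was -0.35 (standard error 0.19, edgeR adjusted p = 0.115), with a 95% confidence interval of -0.75 to 0.06. The adjusted p was 0.0494 (-0.44) without Ezh2 f/f replicate 1, and leaving out Ezh2 cKO replicate 2 gave 0.0339 (-0.62). It was 0.629 (-0.12) without Ezh2 cKO replicate 1, which moved the value most toward 0, and 0.230 (-0.27) when Ezh2 f/f replicate 2 was left out.

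Kdm6a escapes X inactivation, and the libraries differed in genes of the sex chromosomes. Xist, the RNA that coats the inactive X chromosome, had 13 counts in Ezh2 f/f replicate 1 and 3632 in replicate 2, and 1 count in Ezh2 cKO replicate 1 and 3834 in replicate 2. Uty, the Y-linked relative of Kdm6a, had 34 and 57 counts in the first replicates and 0 in the second. Replicate 1 of each group thus carried Y-linked transcripts and replicate 2 carried Xist, in the same arrangement in both groups. In each group Kdm6a was higher in the library with Xist, as the CPM values above show. With 1 library of each kind per group the Kdm6a difference has no replicates, and its relation to Xist was not tested.

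**Figure D3:**
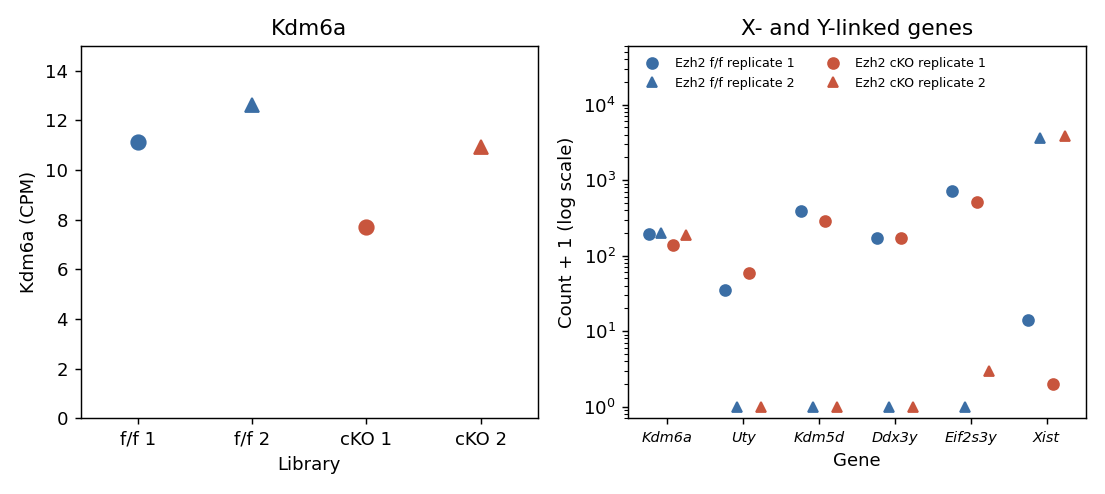
Left, Kdm6a in CPM in each library. Right, counts plus 1 on a log axis for Kdm6a, 4 Y-linked genes and Xist. The first replicate of each group carries the Y-linked counts and the second the Xist counts, and Kdm6a is higher in the second replicate of both groups.

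The log2 ratio of Kdm6b over Kdm6a in FPKM was 4.08 and 3.73 in Ezh2 f/f, against 3.19 and 2.66 in Ezh2 cKO, a difference of -0.98 between group means (exact 2-sided permutation p = 0.333, the smallest possible). Kdm6b still made up 88.3% ± 2.67 (SD, n = 2) of the summed FPKM of both genes in Ezh2 cKO, against 93.7% ± 1.01 (SD, n = 2) in Ezh2 f/f. The sum was 23.2 and 20.7 FPKM in Ezh2 f/f, against 9.50 and 9.92 FPKM in Ezh2 cKO. Ezh2 and Kdm6b, a writer and an eraser of the same mark, were thus both lower in the same libraries.

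**Figure D4:**
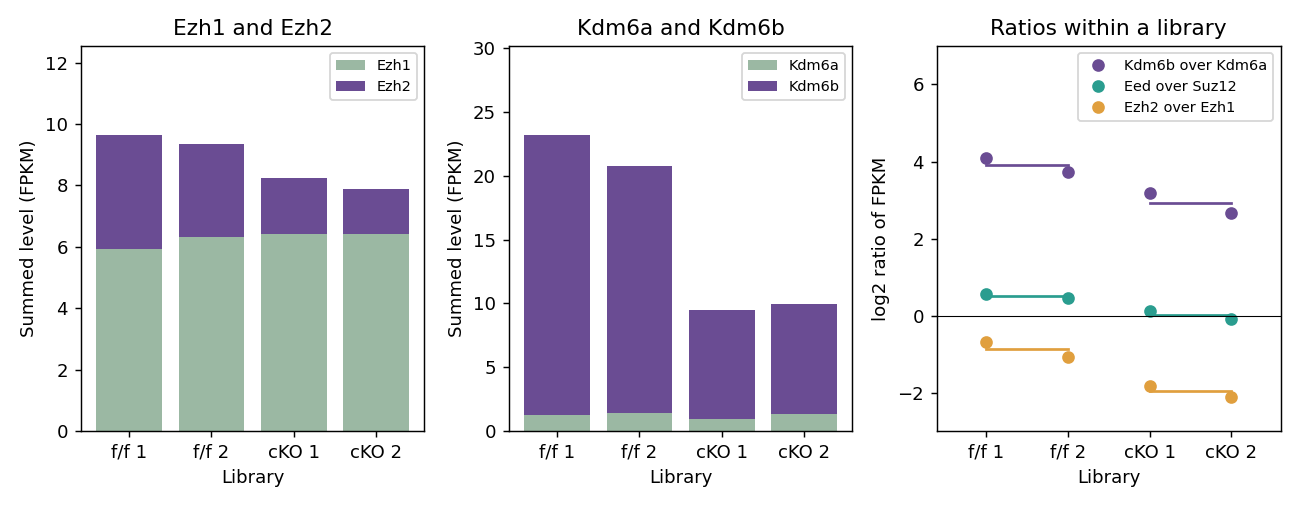
Left and middle, stacked FPKM of Ezh1 with Ezh2 and of Kdm6a with Kdm6b in each library. Right, log2 ratios of FPKM within a library, with points for libraries and lines for group means; all 3 ratios are lower in both Ezh2 cKO libraries than in either Ezh2 f/f library.

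Ordered by mean FPKM in Ezh2 f/f, the genes ran Kdm6b, Ezh1, Eed, Jarid2, Suz12, Ezh2, Aebp2, Mtf2, Kdm6a and Phf19. The ranges of Ezh1 and Eed overlapped, as did those of Ezh2 and Aebp2, and other neighbours did not. In Ezh2 cKO the order was Kdm6b, Ezh1, Jarid2, Eed, Suz12, Mtf2, Aebp2, Ezh2, Kdm6a and Phf19. Neighbours from Eed to Aebp2 overlapped there. Ezh2, already below Eed and Suz12 in Ezh2 f/f, lay below Mtf2 and Aebp2 as well in Ezh2 cKO, at 1.82 and 1.47 FPKM.

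Related genes were read from lists of the other PRC2 components, the KMT2C and KMT2D complexes that hold KDM6A, and the writers of marks that oppose H3K27 methylation. Over all genes tested, 33.6% were called lower and 34.7% higher, and the count of each list is to be read beside these shares. Among the other PRC2 components, 3 of 6 tested were lower and 0 higher, with a median log2 fold change of -0.36. Rbbp4, a histone-binding subunit, had 3414 and 2795 counts in Ezh2 f/f, against 2252 and 2380 in Ezh2 cKO, which is a log2 fold change of -0.51 (edgeR adjusted p = 0.00026). Its paralogue Rbbp7 was at 0.07 (edgeR adjusted p = 0.524). Epop (-0.46) and Lcor were also lower, and without Ezh2 cKO replicate 1 only 1 gene of this list was called. Ezhip, an inhibitor of PRC2, had 1 count in 1 library and was not tested.

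In the KMT2C and KMT2D complexes, which methylate H3K4 at enhancers, 6 of 8 tested genes were lower and 0 higher, with a median of -0.53. Kmt2d, a catalytic subunit, had 5246 and 4731 counts in Ezh2 f/f, against 2074 and 1771 in Ezh2 cKO, which is a log2 fold change of -1.47 (edgeR adjusted p = 1.14e-08). The coactivator Ncoa6 was at -1.05, Wdr5 at -0.69 and Kmt2c at -0.63. Of the 4 subunits shared with other H3K4 methyltransferase complexes, Wdr5 and Rbbp5 (-0.30) were lower, and Ash2l (-0.13) and Dpy30 (0.09) were not called. Rbbp5 ranged from -0.40 to -0.20 over the other analyses, only some of which called it.

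Of the writers of opposing marks, 6 of 7 were lower and 0 higher, with a median of -0.64. The H3K27 acetyltransferase genes Crebbp, with 2319 and 2018 counts against 947 and 1009, and Ep300, with 830 and 550 against 361 and 425, had log2 fold changes of -1.24 and -0.90. The H3K36 methyltransferase gene Setd2 was at -1.11, and Nsd3, at -0.15, was not called. A further list held 3 other genes of demethylase families, Kdm7a, Phf8 and Uty, of which 1 was higher and 0 lower. Phf8 was at 0.04 and Uty was not called. Kdm7a, a demethylase of H3K9 and H3K27, rose, with 101 and 63 counts in Ezh2 f/f, against 132 and 160 in Ezh2 cKO (log2 fold change 0.75, edgeR adjusted p = 0.0088). It was called in 7 of the 11 other analyses that gave it a value, and lost its call when either replicate 2 was left out.

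Markers of several cell types moved with the groups. The count of each marker list is to be read beside the shares over all genes tested, of which 34.7% were called higher and 33.6% lower. Of 12 astrocyte markers, 10 were higher and 0 lower in Ezh2 cKO, and the list summed to 648 and 705 CPM in Ezh2 f/f, against 3345 and 3049 CPM in Ezh2 cKO. Slc1a3, which encodes GLAST, was at 100.2 CPM in Ezh2 f/f, against 301 CPM in Ezh2 cKO, while the Cre driver gene Aldh1l1, at 77.4 and 69.6 CPM, was not called. Neuronal markers summed to 7834 and 8301 CPM in Ezh2 f/f, against 11084 and 10935 CPM in Ezh2 cKO, with Tubb3 at 3617 CPM in Ezh2 f/f, so the labelled astrocyte libraries also held abundant neuronal transcripts in both groups. Of the 12 neuronal markers 10 were higher and 2, Tubb3 and Dcx, were lower.

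Most markers of dividing cells and of progenitors were lower. Of 13 cycling markers, 10 were lower and 0 higher, with a median log2 fold change of -0.92, and their sum went from 253 and 237 CPM to 152 and 148 CPM. Mcm5, a replication factor, was at -1.19 and Ccnb1, a mitotic cyclin, at -1.32. Among 10 progenitor markers 7 were lower, with Eomes at -3.46 and Nes at -1.62, and 3 (Fabp7, Hes5 and Hes1) were higher. The summed level of this list did not separate the groups, at 601 and 648 CPM in Ezh2 f/f, against 689 and 611 CPM in Ezh2 cKO. All 8 oligodendrocyte precursor markers, all 7 tested oligodendrocyte markers and all 8 microglial markers were higher, the last 2 lists summing to 83.1 and 95.8 CPM and to 80.3 and 85.0 CPM in Ezh2 f/f, and to 869 and 744 CPM and 275 and 239 CPM in Ezh2 cKO. Of 8 endothelial and mural markers, 2 were higher and 2 lower. The part of these differences in the values of the writer and eraser genes was not tested.

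**Figure D5:**
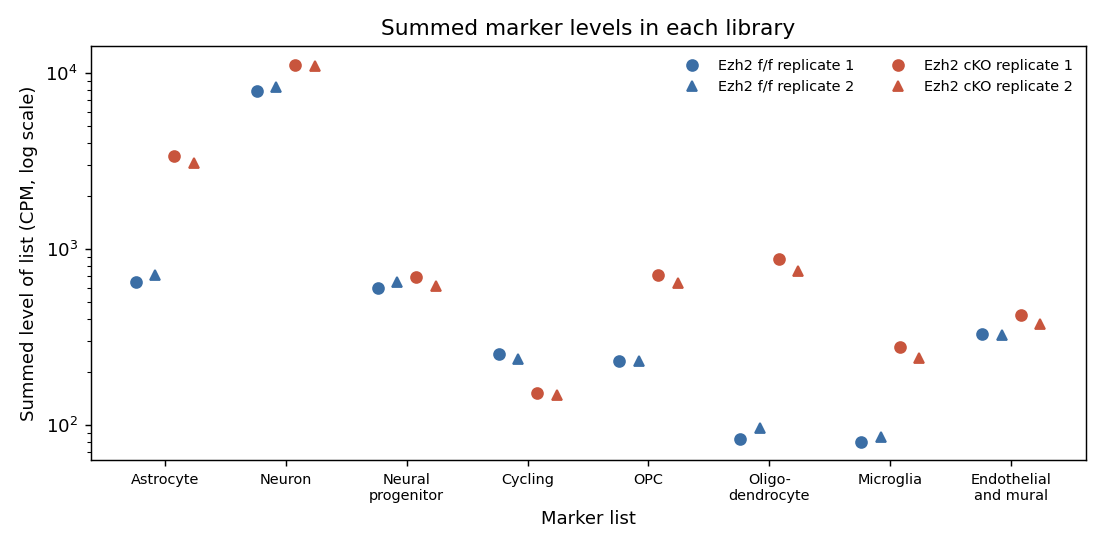
Summed CPM of each cell type's marker list in each library, on a log axis. Cycling markers are lower in both Ezh2 cKO libraries, and astrocyte, neuronal, oligodendrocyte lineage and microglial markers are higher in both.

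The 5 genes most like Ezh2 across the 4 libraries, by the Euclidean distance between centred log2 CPM values among 12775 genes, were Syne4 (distance 0.05), Armc5 (0.07), Snord72 (0.08), Tshz1 (0.08) and Rpl10-ps1 (0.09). Syne4 encodes a nuclear envelope protein and stood at 8.84 and 7.25 CPM in Ezh2 f/f, against 4.08 and 3.17 CPM in Ezh2 cKO. Snord72, a small nucleolar RNA, and Rpl10-ps1, a pseudogene, are uncertain, since their reads may be shared with a host or parent gene. Within a distance of 0.1 of Ezh2 lay 9 genes, within 0.2 there were 87 and within 0.3 there were 485.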

How the data were processed

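RNA-seq counts and FPKM values were analysed for 4 libraries, 2 each of Ezh2 f/f and Ezh2 cKO cortical astrocytes at P5. The authors deposited whole-number counts of reads per gene without normalization, and FPKM, which matched counts divided by gene length and library total within 1e-06 for all 24756 genes with counts in at least 2 libraries. Per the labels, the submitters' processing notes name Bowtie2 2.2.3, TopHat2 2.0.12, HTSeq 0.6.0 and mm9. Use of strand in counting is not given in the sources used here. The deposited coordinates differ from GRCm38 for all 10 genes, so gene positions are GENCODE M21's on GRCm38 by gene identifier. The table also holds the authors' own mean, fold change, p-value and adjusted p-value for each gene, which were not used.

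Library totals were 17522152 and 16273308 counts in Ezh2 f/f, against 17330230 and 16678309 in Ezh2 cKO. A gene with few counts, such as Phf19, has a larger counting error, whose part in the width of its interval was not tested. Genes passing edgeR's filterByExpr (16793) were normalized by TMM (factors 0.976, 0.967, 1.019 and 1.040) and compared with the quasi-likelihood test with group as the only term. Adjusted p-values are Benjamini-Hochberg values over these genes, with calls at 0.05. The standard error is the fold change divided by the square root of its F statistic. CPM divide each count by the TMM-scaled total. Ratios within a library were compared by exact permutation. R 4.3.3, edgeR 4.0.16, limma 3.58.1, DESeq2 1.42.0 and Python 3.11.15 were used. The fits were tested on simulated data in which few genes changed and all genes shared a common spread. That test does not cover data with as many called genes as these. Other analyses used DESeq2's Wald test, DESeq2 size factors, library totals alone, no filter, a mean count of at least 50, limma on log2(FPKM + 1) or log2(FPKM + 0.1), a replicate block, and each library left out in turn. The 10 genes, the promoter motifs and the related and marker lists were chosen with earlier results of these data known. Named genes were all 10 members, up to 4 genes of each other list (the most abundant or with the smallest p), with further genes of the related lists by value, and the 5 genes most like Ezh2 with a mean FPKM of at least 1. Slc1a3, Aldh1l1, Dcx, Hes5 and Hes1 were named after their values were seen. Pagr1a, a listed gene, was not analysed here.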

Additional observations from a re-analysis of the deposited data

How the results depend on the processing

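The number of the 10 genes called lower was 7 in edgeR and fell to 4 with limma on log2(FPKM + 1) or log2(FPKM + 0.1) with an FPKM of at least 1 in 2 libraries, which tested 9 of the 10, and to 3 with limma on log2(FPKM + 1) without a filter. It was 6 with DESeq2, and 5 to 8 with a library left out, with 5 without Ezh2 cKO replicate 1 and 8 without Ezh2 f/f replicate 1. The calls of Ezh2, Eed and Kdm6b were kept in all 13 other analyses, and no analysis called any of the 10 higher. Ezh1, not called in any analysis, changed sign to 0.0645 with library totals alone, 0.0153 with a mean count of at least 50, 0.0558 with limma on log2(FPKM + 1) with or without the filter and 0.0638 with log2(FPKM + 0.1), and ranged from -0.0723 to 0.0185 with a library left out. Mtf2, not called either, changed sign to 0.0188 with library totals alone, 0.0046 with limma on log2(FPKM + 1) with or without the filter and 0.0020 with log2(FPKM + 0.1), and ranged from -0.294 to 0.134 with a library left out. Over the 9 genes other than Ezh2, 88 of 115 values kept direction and call, 13 lost the call, 2 gained it and 12 changed sign, and the cause was not tested. Leaving out a library leaves a group with 1 library, which is then assumed to vary like the other group.

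Replicate numbers are shared between groups, and the deviations of same-numbered libraries correlated with r = 0.16 across 12918 genes, which are not independent; the numbers also follow the Xist counts. With the replicate block, 7 of the 10 genes were again called lower, and the log2 fold change of Ezh2 was -1.11. Phf19 had the fewest counts of the 10 genes and the widest interval; how far depth and spread between libraries each limit the others was not tested.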
